A study of Saccharomyces cerevisiae with 18 samples.

Results

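The comparison is of a diploid strain of Saccharomyces cerevisiae with 2 haploid strains, all growing without added ethanol. Its members are 6 of the 18 arrays of the series: 2 of the diploid, 2 of a haploid labelled alpha and 2 of a haploid labelled a, each at 0% ethanol. The other 12 arrays hold the same 3 strains at 3% and 7% ethanol. They share the estimate of the spread and are used at the end to see how far the differences at 0% recur. Per the labels, each of the strains is ethanol tolerant. The labels give no strain name, no genotype beyond ploidy and mating type, and no relation between the diploid and the haploids, so the diploid state rests on 1 strain and the haploid state on 2, and a difference of ploidy cannot be told apart from any other difference between these strains. All were grown in 5 L fermentors in a yeast extract, peptone and glucose medium with 100 g of glucose per litre, and were sampled at mid-exponential phase. Nothing says whether the 2 samples of a group came from separate cultures, so the p-values measure only the spread between these samples, which may be technical.

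A yeast cell's type is set at the mating-type locus. In an alpha cell the alpha1 regulator turns on the alpha-specific genes (pheromone, receptor and agglutinin of that type) and alpha2 turns off the a-specific genes. In a cell with both alleles the a1 and alpha2 proteins pair, shut off the haploid-specific genes (the pheromone signalling pathway, HO and the meiosis inhibitor RME1) and alpha1 itself, so such a cell does not mate and can enter meiosis. An a/alpha cell also buds in a bipolar pattern, where haploids bud axially, next to the last division site.

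The labels were first checked against these markers. On the diploid arrays the markers went with the label: alpha-specific transcripts and most haploid-specific ones were far below their levels in the haploids, and the a1 transcript was present. In the haploid labelled a they did not. The 5 alpha-specific transcripts summed to 145 and 158 on the diploid arrays, against 8488 to 10610.4 over the 4 haploid arrays, those labelled a included. In the haploid labelled a the 7 a-specific transcripts had low signals, of 7.58 for BAR1 to 45.8 for MFA2, and the a1 transcript was under the background limit on both arrays. It is therefore called the haploid labelled a throughout, and the mating-type contrasts below set the diploid against 2 strains with alpha-type transcripts. Values are scaled signals, which are comparable between arrays for 1 gene but not between genes, and differences are log2 differences of the scaled signal plus 16, ± SE of the fit, diploid minus haploids. On this scale the change of a dim gene is understated. A gene "rose" or "fell" only where its adjusted p in the fit with limma was under 0.05 against the mean of the 2 haploids, each haploid weighted equally. RNA came from whole cultures, in which fewer cells that carry a transcript and less of it per cell cannot be told apart.

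The 6 arrays were of like quality: their scaling factors were 0.84 to 1.06, each had 5234 to 5288 of 5363 genes brighter than its background limit, and the 2 arrays of a strain differed with an SD of 0.132 to 0.141 in log2 signal. The 18S rRNA control read 768 to 1394.

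Against the mean of the haploids, 398 genes were higher and 570 lower in the diploid, which is 18% of the 5363 genes tested (7.42% higher and 10.6% lower). Few of these differences were large: 14 of the higher and 68 of the lower genes differed by at least 2-fold. The median over all genes was -0.02. The split between higher and lower depended on the scaling, with 466 higher and 401 lower after quantile normalization and 588 higher and 417 lower after median centring. It also rested on each diploid array: without diploid replicate 1 the counts were 208 and 354, and without diploid replicate 2 there were 361 lower genes.

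The 2 haploids differed from one another, so much of this depended on which haploid the diploid was set against. The sign held against each haploid alone for 325 of the 398 higher and 464 of the 570 lower genes. Past the threshold against the mean and against each haploid were 85 higher genes (1.58% of all tested) and 190 lower genes (3.54%). The count of 85 fell to 47 without diploid replicate 1, 55 without alpha replicate 1 and 52 without alpha replicate 2, and median centring raised it to 194. Most of the remaining genes were carried by 1 haploid: 241 of the higher and 213 of the lower genes passed only against the haploid labelled a, 72 and 164 only against the alpha haploid. Both diploid arrays lay above all 4 haploid arrays for 465 genes (8.67%) and below them for 577 (10.8%). At differences of 2-fold or more the picture was more uniform, with 11 of 14 higher and 63 of 68 lower genes past the threshold against each haploid.

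Set against the alpha haploid alone, 415 genes were higher (7.74%) and 998 lower (18.6%), together 26.3% of all tested. Against the haploid labelled a alone 966 were higher (18%) and 769 lower (14.3%), together 32.4%. These 2 comparisons share the diploid arrays. With median centring the first had 867 higher and 581 lower genes. For 134 genes the diploid lay above the alpha haploid and below the haploid labelled a, and for 179 the reverse, with both differences past the threshold.

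**Figure D1:**
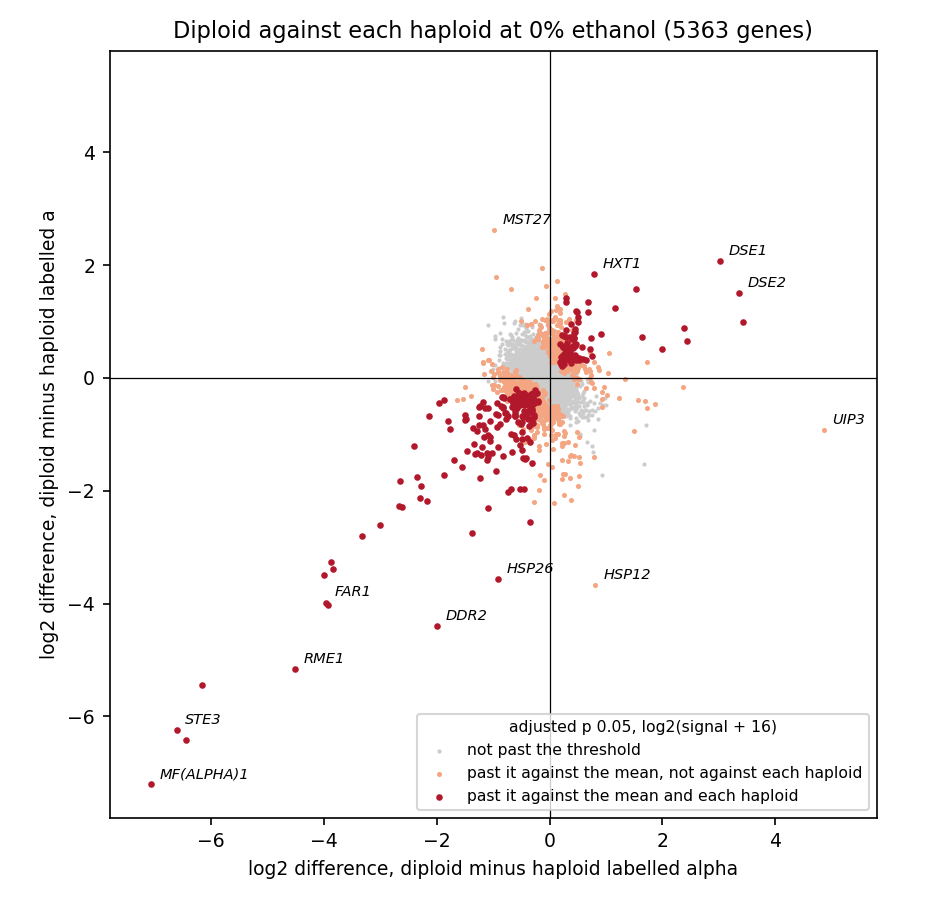
Each point is 1 of 5363 genes, placed by its log2 difference from the alpha haploid (x axis) and from the haploid labelled a (y axis) at 0% ethanol; the y difference and the x difference share the diploid arrays. The dark points (85 higher, 190 lower) passed the threshold against the mean and each haploid, and the long tail at lower left holds MF(ALPHA)1, STE3, RME1 and FAR1, while HSP12, UIP3 and MST27 have opposite signs against the haploids.

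The alpha-specific transcripts included the largest differences of all. All 5 genes tested of the 8 listed fell, each against each haploid. MF(ALPHA)1, which encodes most of the alpha-factor pheromone, had signals of 13.5 and 16.7 in the diploid, against 4524 and 3763 in the alpha haploid and 5125 and 4080.0 in the haploid labelled a. It fell by 7.13 ± 0.10 (adjusted p = 5.2e-22), from both haploids alike (-7.06 and -7.21). STE3, the receptor for a-factor, had 4.97 and 5.64 in the diploid, against 2091 and 2046 in the alpha haploid and 1594 and 1614 in the haploid labelled a. The diploid values lie about at the background limit, and STE3 fell by 6.43 ± 0.08. MF(ALPHA)2, the second pheromone gene, had 20.5 and 12.5 in the diploid, against 2393 and 2227 in the alpha haploid and 1358 and 1419 in the haploid labelled a, a difference of -5.81 ± 0.10. AFB1, which encodes a secreted barrier to a-factor and was not on the list, had 8.90 and 7.82 in the diploid, against 2153 and 2075 in the alpha haploid and 2179.6 and 1987 in the haploid labelled a, and a difference of -6.44 ± 0.08. SAG1, the alpha-agglutinin, fell by 3.06 ± 0.08, and its transcript was well above background in the diploid too, at 97.1 and 91.1, against 1081 and 1092 in the alpha haploid and 721 and 783 in the haploid labelled a.

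The regulators at the mating-type locus differed as well. The probe set for HMLALPHA1, whose sequence is shared by the alpha1 gene at the active locus and its silent copy, had 21.9 and 18.8 in the diploid, against 522 and 553 in the alpha haploid and 563 and 592 in the haploid labelled a, and fell by 3.98 ± 0.08. HMRA1 reads the a1 gene, again at either locus. It was the 1 gene above the background limit on both diploid arrays and under it on all 4 haploid arrays, at 31.4 and 36.5 in the diploid, against 2.38 and 0.0398 in the alpha haploid and 0.184 and 1.16 in the haploid labelled a. HMRA1 was thus at least 6.10-fold higher in the diploid (difference 1.56 ± 0.11, adjusted p = 5.5e-10). The probe set of HMRA2, which also reads related mating-type sequence, fell by 1.13 ± 0.16. The a-specific genes were low in every strain, with sums over the 7 genes of 85.6 to 92.2 on the diploid arrays and 102 to 143 on the haploid arrays. Only MFA2, an a-factor gene, passed, with 12.8 and 20.8 in the diploid, against 21.9 and 19.5 in the alpha haploid and 45.8 and 31.9 in the haploid labelled a, and a difference of -0.46 ± 0.14, which did not pass against the alpha haploid alone (-0.17). MFA2 also lost its call without diploid replicate 1 (-0.28), alpha replicate 1 or a replicate 1, and with quantile normalization or median centring. MFA1 gained one without alpha replicate 2 and without scaling. The remaining members, MFA1, STE2, STE6, BAR1, AGA2 and ASG7, had differences from -0.41 to 0.16. Of these, STE2, the alpha-factor receptor, had 18.5 and 21.9 in the diploid, against 19.7 and 23.0 in the alpha haploid and 26.0 and 28.4 in the haploid labelled a, so the diploid and the alpha haploid overlap.

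**Figure D2:**
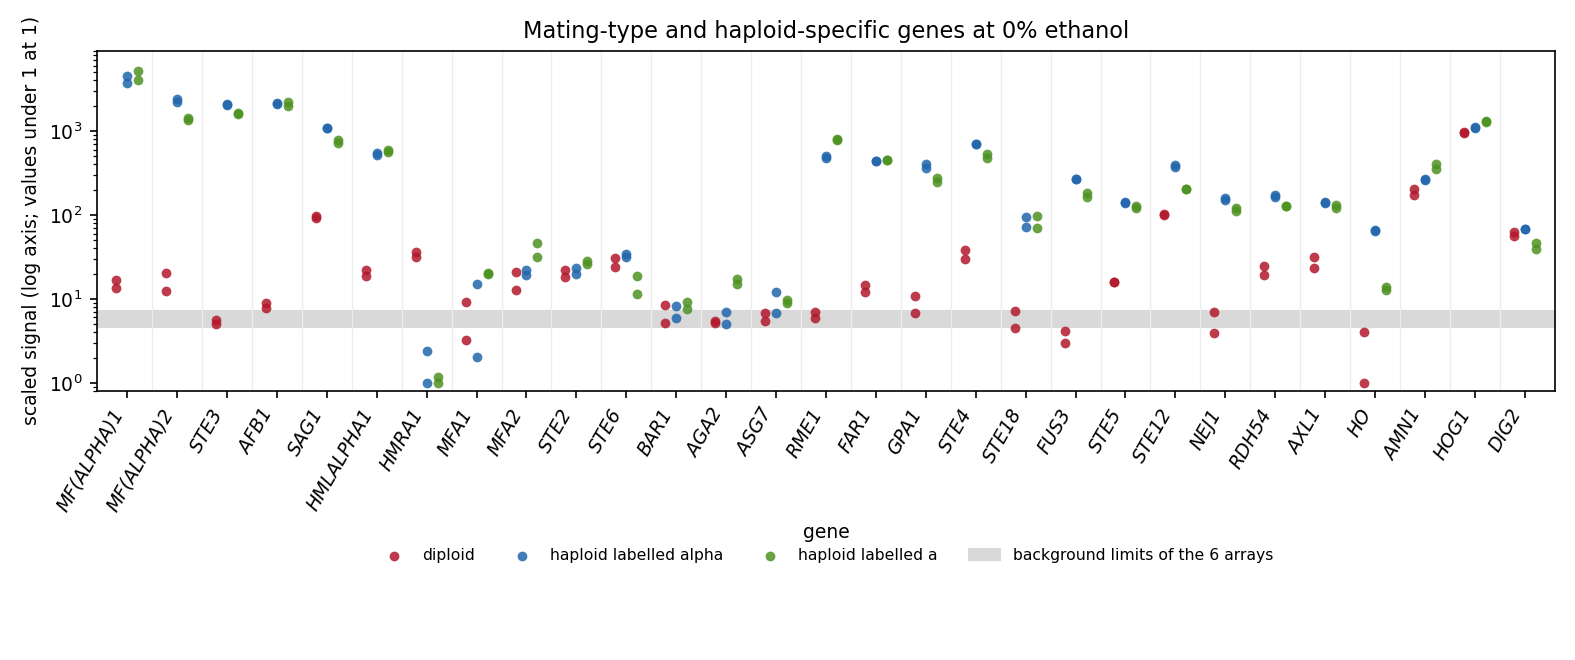
Scaled signal (log axis) of 29 mating-type and haploid-specific genes on each of the 6 arrays at 0% ethanol, with 1 point per array, the diploid at left in each column, and the background limits of the 6 arrays as a grey band. The alpha-specific genes and most haploid-specific genes lie far lower in the diploid than in both haploids, SAG1 well above the band in all, HMRA1 does the opposite, the a-specific genes are low in every strain, and HOG1 and DIG2 differ little.

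Of the 15 haploid-specific genes, 14 fell and each of them did so against each haploid; the list's median was -2.18, beside -0.02 over all genes. RME1, the repressor of meiosis, had 6.90 and 5.88 in the diploid, against 506 and 479 in the alpha haploid and 791 and 784 in the haploid labelled a. It fell by 4.84 ± 0.10, with the diploid at about the background limit. FAR1, which arrests the cycle and orients growth in response to pheromone, had 14.6 and 12.0 in the diploid, against 441 and 437 in the alpha haploid and 449 and 446 in the haploid labelled a, a difference of -3.97 ± 0.10. The 3 subunits of the pheromone receptor's G protein fell together. GPA1, the alpha subunit, had 6.76 and 10.8 in the diploid, against 403 and 359 in the alpha haploid and 274 and 249 in the haploid labelled a, and fell by 3.75 ± 0.10. STE4, the beta subunit, had 37.9 and 29.6 in the diploid, against 689 and 701 in the alpha haploid and 479 and 525 in the haploid labelled a, and fell by 3.61 ± 0.09. STE18, the gamma subunit, fell by 2.18 ± 0.13.

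Downstream in the pathway, FUS3, its MAP kinase, was under the background limit on both diploid arrays and above it on all haploid arrays, with 4.15 and 2.94 in the diploid, against 269 and 269.9 in the alpha haploid and 161 and 181 in the haploid labelled a, at least 42.7-fold lower in the diploid. STE5, the scaffold that holds the kinases, had 15.7 and 16 in the diploid, against 142 and 140.2 in the alpha haploid and 121 and 126 in the haploid labelled a, and fell by 2.22 ± 0.09. STE12, the transcription factor at the end of the pathway, kept clear signal in the diploid, with 102 and 100.4 in the diploid, against 393 and 372 in the alpha haploid and 202 and 203 in the haploid labelled a, and fell by 1.33 ± 0.08, and the difference was larger against the alpha haploid (-1.77) than against the haploid labelled a (-0.90).

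Genes outside signalling were also in this set. NEJ1, which promotes nonhomologous end joining in haploids, had 7.07 and 3.95 in the diploid, against 159 and 152 in the alpha haploid and 119.6 and 110.3 in the haploid labelled a, a difference of -2.80 ± 0.10. RDH54, a recombination helicase, fell by 2.10 ± 0.11. AXL1, a protease that matures a-factor and sets the axial budding pattern, had 31.5 and 23.1 in the diploid, against 139 and 144 in the alpha haploid and 131 and 122 in the haploid labelled a, and fell by 1.80 ± 0.11. HO, the endonuclease for mating-type switching, was under the limit in the diploid and unequal between the haploids, with 3.99 and 0.785 in the diploid, against 65.8 and 63.8 in the alpha haploid and 13.7 and 12.6 in the haploid labelled a, at least 5.81-fold lower in the diploid. AMN1, a brake on mitotic exit that also blocks separation of mother and daughter, fell by 0.72 ± 0.08. HOG1, the osmotic stress kinase, fell by only 0.31 ± 0.06, with 964 and 942 in the diploid, against 1124 and 1070.2 in the alpha haploid and 1278 and 1298 in the haploid labelled a. Without scaling the difference of HOG1 was -0.26 and did not pass. DIG2, an inhibitor of STE12, was the exception, with 56.2 and 62.5 in the diploid, against 67.0 and 68.5 in the alpha haploid and 46.6 and 39.7 in the haploid labelled a (difference 0.10 ± 0.12, adjusted p = 0.63).

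Among genes that the pheromone pathway induces or that act in mating, 15 of 36 fell, beside 10.6% of all genes, 2 rose and 19 did not pass, and 12 of the falls and 1 of the rises held against each haploid. The list's median was -0.29. AGA1, the anchor of a-agglutinin, had 31.9 and 19.1 in the diploid, against 205 and 289 in the alpha haploid and 166 and 198 in the haploid labelled a, and fell by 2.46 ± 0.14. TEC1, a partner of STE12 at filamentation genes, had 43.3 and 42 in the diploid, against 356 and 330.3 in the alpha haploid and 257 and 283 in the haploid labelled a, a difference of -2.45 ± 0.09. SST2, which quenches the G protein, had 28.7 and 30.5 in the diploid, against 262 and 279.9 in the alpha haploid and 147 and 147 in the haploid labelled a, a difference of -2.25 ± 0.09. In all 3 the groups are far apart. FUS1, needed for cell fusion, fell by 1.58 ± 0.13. GIC2, an effector of CDC42, fell by 1.57 ± 0.09, and AFR1, needed to shape the mating projection, fell by 1.29 ± 0.12. DIG1, the other inhibitor of STE12, fell by 1.03 ± 0.11, PRM5 fell by 1.13 ± 0.09, and PRM3, needed for nuclear fusion, fell by 0.68 ± 0.14. FIG1, a membrane protein of mating cells, was under the background limit in the diploid (1.61 and 2.26) and just above it in the haploids (15.9 and 11.9 in the alpha haploid, 15.6 and 9.92 in the haploid labelled a), at least 2.61-fold lower.

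The 2 rises were members of the same membrane protein family. PRM8 had 47.0 and 70.3 in the diploid, against 9.72 and 5.97 in the alpha haploid and 29.0 and 28.4 in the haploid labelled a, and rose by 1.18 ± 0.17 (adjusted p = 5.0e-05). PRM9 had 52.6 and 67.2 in the diploid, against 131 and 129.6 in the alpha haploid and 5.53 and 6.40 in the haploid labelled a, so the diploid lay between the haploids, and its rise of 0.41 ± 0.10 had opposite signs against each (-0.95 and 1.78). Without diploid replicate 2 it was 0.28 and did not pass.

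All 5 genes on the axial budding list fell, beside 10.6% of all genes, and 4 did so against each haploid. AXL1 and AFR1 were also counted on the lists above. AFR1, 1 of the 4, is described there for its part in the mating projection, and no role in budding is given for it here. The others were AXL2, a transmembrane landmark protein, and BUD3 and BUD4, which mark the old division site. AXL2 had 150.1 and 116 in the diploid, against 337 and 305 in the alpha haploid and 252 and 244 in the haploid labelled a, and fell by 1.01 ± 0.11. BUD3 had 149 and 151 in the diploid, against 253 and 263 in the alpha haploid and 148 and 171 in the haploid labelled a, so its difference of -0.40 ± 0.10 came from the alpha haploid (-0.73) and did not pass against the haploid labelled a (-0.08). BUD4 fell by 0.31 ± 0.09. BUD3 did not pass without diploid replicate 1 or without scaling. BUD4 did not pass without either diploid array, alpha replicate 2 or a replicate 1. Its call was also lost without scaling, with quantile normalization, with median centring and in the fit on the 6 arrays at 0% ethanol. Of the 9 genes of the bipolar pattern, RAX2, a landmark, fell by 0.60 ± 0.09, RAX1, its partner, fell by 0.30 ± 0.10, and BUD9, the landmark of the birth pole, rose by 0.54 ± 0.10. BUD9 had 202 and 181 in the diploid, against 110.1 and 97.9 in the alpha haploid and 148 and 159.8 in the haploid labelled a, and the rise did not pass against the haploid labelled a alone. The call for RAX1 was lost without either diploid array, alpha replicate 1 or a replicate 2, and with the same scalings and fit as that for BUD4.

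Genes for separating daughter from mother gave the 2 largest rises in the comparison. Many are expressed in daughter cells, and several encode enzymes that digest the septum. Of 17 tested, 6 rose and 5 fell, beside 7.42% and 10.6% of all genes. Of these, 5 of the rises and 3 of the falls held against each haploid. DSE1 had 258 and 206 in the diploid, against 15 and 13.6 in the alpha haploid and 57.8 and 30.3 in the haploid labelled a. It rose by 2.55 ± 0.15, or 5.86-fold (adjusted p = 4.7e-11). DSE2, a secreted glucanase-like protein, had 1060.2 and 912 in the diploid, against 68.1 and 96.7 in the alpha haploid and 314 and 359 in the haploid labelled a, and rose by 2.43 ± 0.13. Both haploids lay below the diploid, the alpha haploid furthest, and this order recurred in the next members. SCW11, a wall glucanase, had 356 and 322 in the diploid, against 57.2 and 47.7 in the alpha haploid and 162 and 191 in the haploid labelled a, a rise of 1.63 ± 0.10. CTS1, the chitinase that cuts the septum, had 1975 and 1728 in the diploid, against 313 and 342 in the alpha haploid and 1149 and 1189 in the haploid labelled a, a rise of 1.55 ± 0.07. PRY3, a wall protein, was the exception in that the haploids were alike, with 2029.8 and 1576 in the diploid, against 891 and 704 in the alpha haploid and 666 and 835 in the haploid labelled a, a rise of 1.20 ± 0.14.

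Of the other members of the separation list, BUD9 rose, 5 fell and the rest did not pass. ASH1, the daughter-specific repressor of HO, had 299 and 254 in the diploid, against 421 and 407 in the alpha haploid and 478 and 487 in the haploid labelled a, and fell by 0.67 ± 0.10. MOB2, the partner of the kinase CBK1, fell by 0.51 ± 0.11, a call lost without diploid replicate 1. PST1, a wall protein, fell by 0.70 ± 0.07, but not past the threshold against the alpha haploid (-0.19). SWI5, an activator of HO and ASH1 that was on the switching and mitosis lists and not on this one, had 74.0 and 71.4 in the diploid, against 176 and 183 in the alpha haploid and 120.1 and 105 in the haploid labelled a, and fell by 0.84 ± 0.10.

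**Figure D3:**
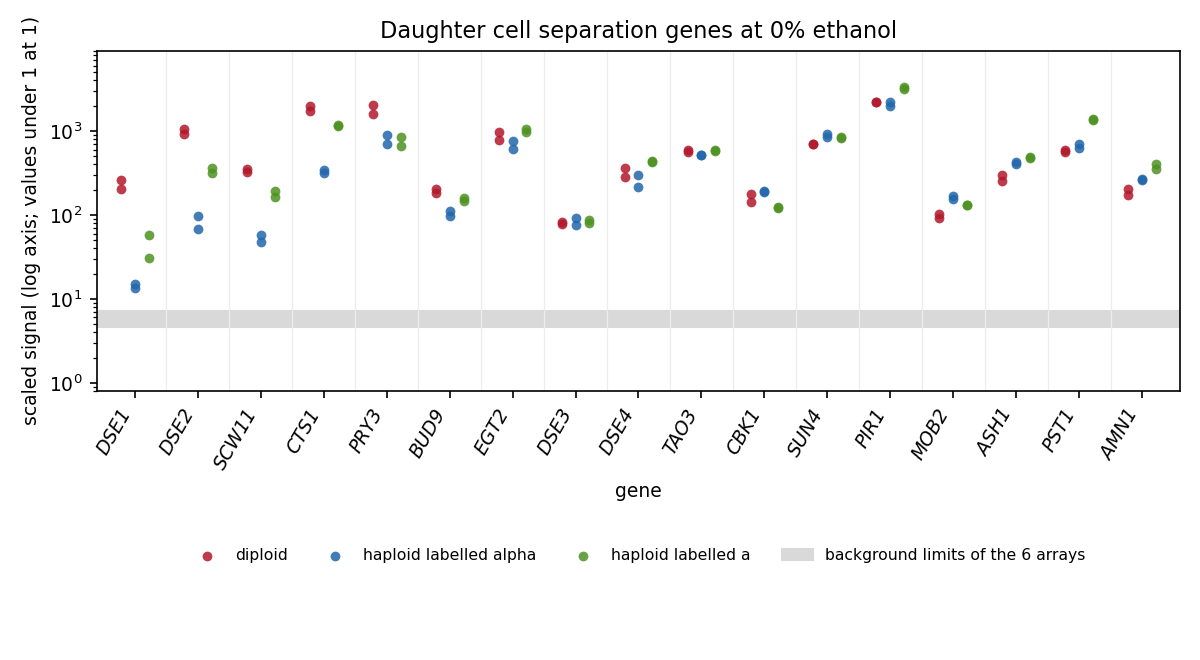
Scaled signal (log axis) of the 17 daughter separation genes tested, with 1 point per array at 0% ethanol and the diploid at left in each column. DSE1, DSE2, SCW11 and CTS1 are highest in the diploid, intermediate in the haploid labelled a and lowest in the alpha haploid, PRY3 is above both haploids alike, and ASH1, MOB2 and AMN1 are lowest in the diploid.

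Few transcripts of meiosis and sporulation passed the test in these growing cells. Of 28 early meiosis genes tested, 0 rose and 1 fell, beside 7.42% and 10.6% of all genes. Of 25 middle and late sporulation genes 0 passed either way. Medians were -0.16 and -0.11. Many were dim: 14 of the 28 and 20 of the 25 had mean signals under 16 in each strain, beside 4.29% of all genes. As 16 was the amount added before the log, a difference at such signals has little room to pass. IME1, the master regulator of entry into meiosis, had 23.2 and 21.5 in the diploid, against 27.6 and 30.9 in the alpha haploid and 26.9 and 18.3 in the haploid labelled a (adjusted p = 0.53). The 1 fall was KAR4, which acts in mating and in meiosis, with 60.3 and 59.3 in the diploid, against 121 and 106 in the alpha haploid and 73.2 and 73.1 in the haploid labelled a, and a difference of -0.50 ± 0.11 that did not pass against the haploid labelled a.

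**Figure D4:**
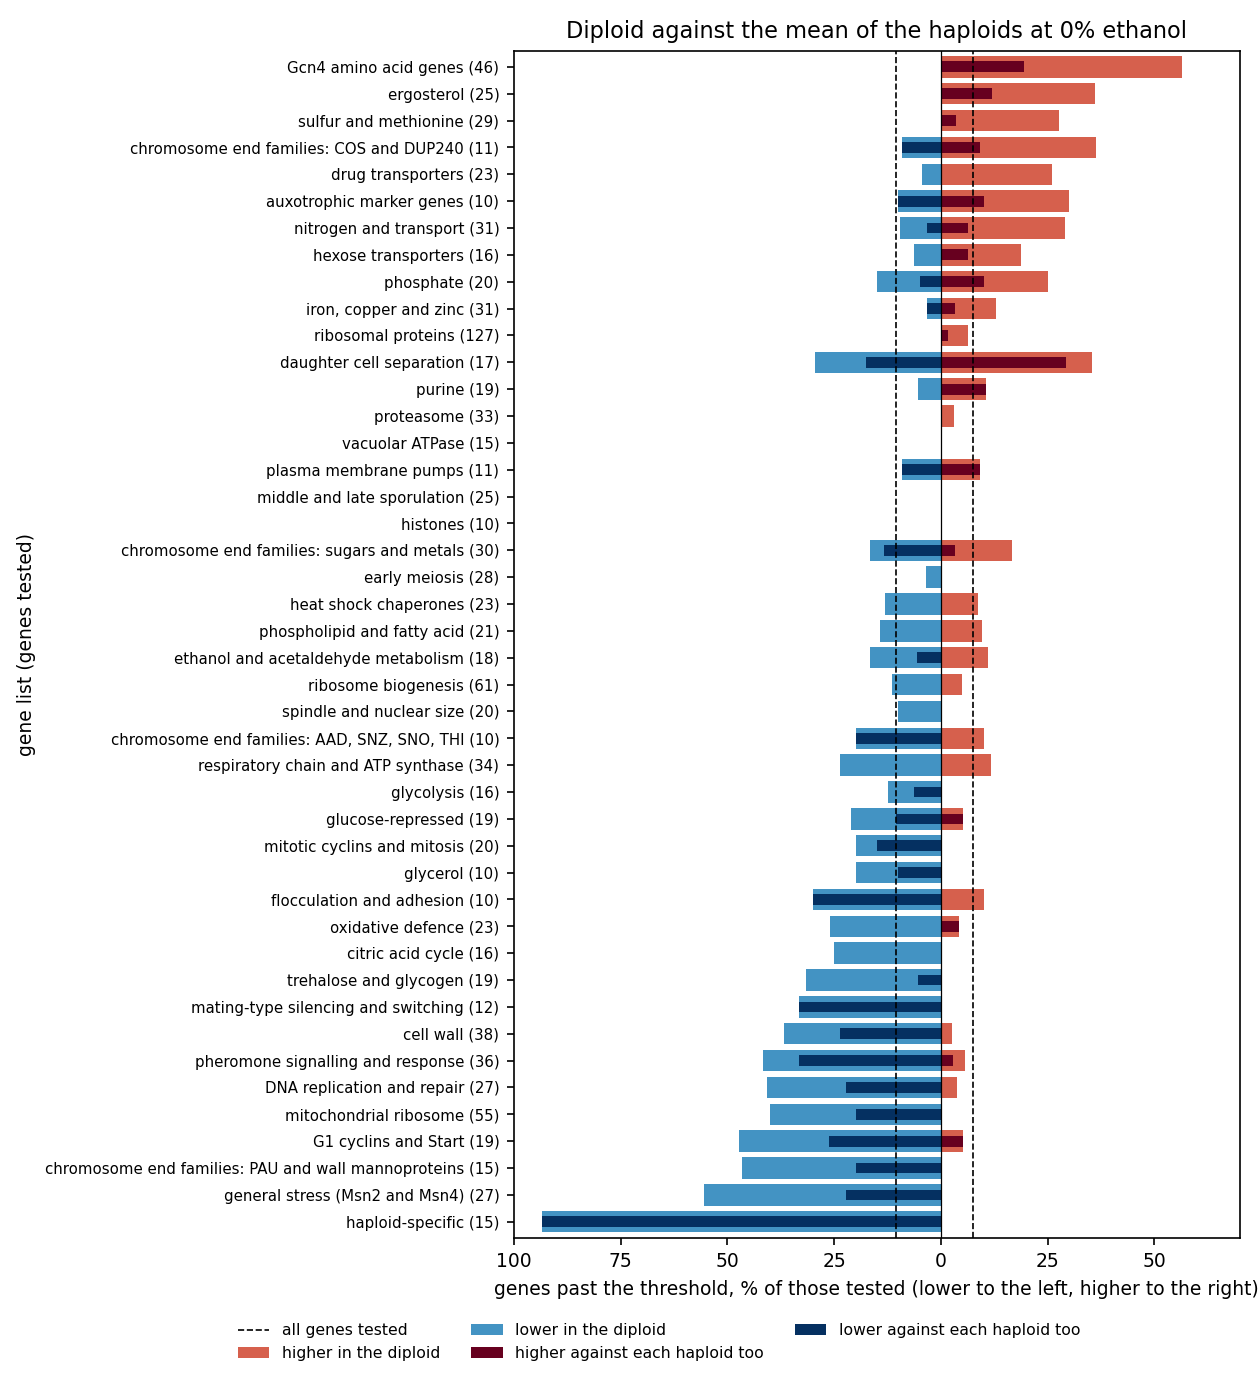
Share of the genes tested in each list of at least 10 that passed the threshold at 0% ethanol, lower in the diploid to the left and higher to the right, with the part that also passed against each haploid in dark bars and the share over all genes as dashed lines. Haploid-specific genes reach furthest left and Gcn4 amino acid genes furthest right. Lists share some members, such as FAR1, NEJ1 and AMN1.

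Of the lists, the one with the most rises was amino acid synthesis. Of 46 genes that the activator GCN4 controls, 26 rose, beside 7.42% of all genes, and 0 fell, and 9 rose against each haploid. Against the alpha haploid alone 10 rose, beside 7.74% of all genes, and 1 fell. Against the haploid labelled a alone 31 rose, beside 18% of all genes, and 1 fell. The median was 0.23, against 0.10 relative to the alpha haploid and 0.37 relative to the haploid labelled a. LEU1, which acts in leucine synthesis, had 2539.6 and 2679 in the diploid, against 1957 and 1808 in the alpha haploid and 1185 and 1083 in the haploid labelled a, and rose by 0.83 ± 0.07. LYS4, an enzyme of lysine synthesis, had 1841 and 1767 in the diploid, against 1444 and 1501 in the alpha haploid and 649.7 and 750.2 in the haploid labelled a, a rise of 0.82 ± 0.07. Every diploid array was above every haploid array for both genes, and the haploid labelled a was lowest. LEU2, also of leucine synthesis, rose by 0.64 ± 0.06, and LYS12, the next lysine enzyme, rose by 0.50 ± 0.06.

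2 further genes of metabolite handling rose by about as much. OAC1, a mitochondrial carrier of oxaloacetate and isopropylmalate, had 1339.9 and 1457 in the diploid, against 898 and 826 in the alpha haploid and 595 and 625 in the haploid labelled a, a rise of 0.93 ± 0.10. SRY1, which breaks down hydroxyaspartate, had 1963 and 1939.5 in the diploid, against 1221 and 1189.6 in the alpha haploid and 745 and 766 in the haploid labelled a, and rose by 1.02 ± 0.07. YNR068C, an unnamed gene, rose by 0.86 ± 0.09, mainly against the haploid labelled a (1.42 against 0.29 relative to the alpha haploid).

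Genes of the general stress response, driven by MSN2 and MSN4, went the other way, and in the median the haploids stood on opposite sides of the diploid. Of 27, 15 fell, beside 10.6% of all genes, and 0 rose against the mean, with 6 falls against each haploid. The median was -0.38 against the mean, but 0.19 relative to the alpha haploid and -1.04 relative to the haploid labelled a. DDR2 fell furthest, with 54.3 and 66.7 in the diploid, against 320.2 and 256 in the alpha haploid and 1654 and 1544 in the haploid labelled a, a difference of -3.20 ± 0.13. HSP26, a small heat shock protein, had 38.3 and 35.5 in the diploid, against 93.1 and 74.5 in the alpha haploid and 603 and 618 in the haploid labelled a, and fell by 2.24 ± 0.09. YRO2, a plasma membrane protein, had 56.0 and 57.5 in the diploid, against 176 and 169 in the alpha haploid and 448 and 500.2 in the haploid labelled a, and fell by 2.06 ± 0.08. In these the diploid was lowest and the haploid labelled a highest by far. HSP12, a membrane-stabilizing protein named after its values were seen, had 87.9 and 102 in the diploid, against 53.7 and 41.0 in the alpha haploid and 1342 and 1442 in the haploid labelled a, so its difference of -1.43 ± 0.11 joined opposite signs, 0.81 against the alpha haploid and -3.67 against the haploid labelled a. GPH1, glycogen phosphorylase, likewise had 0.38 and -2.17, and -0.89 ± 0.08 against the mean. SPI1, a wall protein, fell by 1.45 ± 0.08.

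Cell wall genes were lower on balance: 14 of 38 fell, beside 10.6% of all genes, and 1 rose, with 9 of the falls against each haploid. CWP1, a wall mannoprotein, had 391 and 442 in the diploid, against 756 and 736 in the alpha haploid and 1063 and 1155 in the haploid labelled a, and fell by 1.10 ± 0.08. YPS3, a wall protease, fell by 1.30 ± 0.13. Of 15 PAU and anaerobic mannoprotein genes near chromosome ends, 7 fell, beside the same 10.6%, and 0 rose. DAN1, induced when oxygen is short, had 419.7 and 466 in the diploid, against 2420.2 and 2253 in the alpha haploid and 1534 and 1550.0 in the haploid labelled a, a difference of -2.06 ± 0.06. TIR2 fell by 1.10 ± 0.10. TIR4 fell by 0.83 ± 0.07, with -1.50 against the alpha haploid and -0.16, which did not pass, against the haploid labelled a. The diploid was lowest for DAN1 and TIR2 on every array.

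Of 19 genes of G1 and the commitment to division, 9 fell, beside 10.6% of all genes, and 1 rose. Of these, 5 of the falls and the rise held against each haploid. FAR1, above, is one of the 9. CLN2, a G1 cyclin, had 100.3 and 116 in the diploid, against 319 and 228 in the alpha haploid and 265 and 283 in the haploid labelled a, and fell by 1.21 ± 0.10. SWI4, the factor that activates CLN2, fell by 0.64 ± 0.14, and PCL9, a cyclin of the Pho85 kinase, fell by 0.53 ± 0.11. WHI3, which holds back CLN3, rose by 0.39 ± 0.10. The rise of WHI3 did not pass without diploid replicate 1, and the call for SWI4 was lost without diploid replicate 2.

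11 of 27 genes of DNA replication and repair fell, beside 10.6% of all genes, and 1 rose. Of the falls, 6 were against each haploid. NEJ1 and RDH54 of the haploid-specific set are among the 11. 2 genes that the DNA damage checkpoint induces fell, with the haploid labelled a highest: HUG1, an inhibitor of ribonucleotide reductase, had 62.2 and 101 in the diploid, against 195 and 179.6 in the alpha haploid and 414 and 509 in the haploid labelled a (difference -1.70 ± 0.13), and RNR3, a subunit of that enzyme, had 116 and 110.1 in the diploid, against 172 and 211 in the alpha haploid and 460.1 and 518 in the haploid labelled a (difference -1.32 ± 0.09). RAD54, RNR4 and RNR2, which DNA damage also induces, did not pass, with differences of -0.28, -0.04 and -0.0021.

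Sugar and phosphate genes changed in both directions. HXT1, the low-affinity glucose transporter, had 148 and 116 in the diploid, against 67.4 and 70.4 in the alpha haploid and 34.3 and 17.7 in the haploid labelled a, and rose by 1.32 ± 0.15. SUC2, invertase, had 999 and 886 in the diploid, against 1861 and 2233 in the alpha haploid and 2729.6 and 2505 in the haploid labelled a, and fell by 1.28 ± 0.09. HXK1, a hexokinase, fell by 1.38 ± 0.06, with 328 and 349 in the diploid, against 583 and 561 in the alpha haploid and 1464 and 1393 in the haploid labelled a. MAL32, a maltase whose probe set also reads related genes, fell by 1.30 ± 0.13. PHO84, the high-affinity phosphate transporter, had 1075 and 800.5 in the diploid, against 513 and 457 in the alpha haploid and 483 and 587 in the haploid labelled a, a rise of 0.85 ± 0.09, and VTC2, of the polyphosphate polymerase, rose by 0.51 ± 0.08. PHO5, the secreted acid phosphatase, instead fell by 1.20 ± 0.08, with 299.9 and 287 in the diploid, against 1265 and 1122 in the alpha haploid and 390.5 and 417 in the haploid labelled a. Of the 20 phosphate genes, 5 rose and 3 fell, beside 7.42% and 10.6% of all genes.

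Among metal and vitamin genes, ARR3, the arsenite exporter, had 112 and 110.5 in the diploid, against 14.3 and 18 in the alpha haploid and 68.8 and 77.1 in the haploid labelled a, and rose by 1.25 ± 0.11. Its neighbour ARR2, an arsenate reductase, had 171 and 161 in the diploid, against 20.5 and 18.3 in the alpha haploid and 186 and 186 in the haploid labelled a, so its rise of 1.10 ± 0.10 was against the alpha haploid alone. FRE6, a vacuolar metalloreductase, rose by 0.83 ± 0.11. FIT2, a wall protein that holds siderophores, and SOR2, a sorbitol dehydrogenase whose sequence is near identical to that of its paralogue, were under the limit in the diploid and above it in the haploids (at least 2.64-fold and 2.03-fold lower). SNO3, of the vitamin B6 gene family, fell by 1.38 ± 0.11, and SNZ3 fell by 0.70 ± 0.14, both from probe sets that also read family members.

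Mitochondrial genes differed by class. Of 55 genes of the mitochondrial ribosome, 22 fell, beside 10.6% of all genes, and 0 rose. Of the falls, 11 were against each haploid, and the list's median was -0.25. MRPL38, of its large subunit, had 252 and 285 in the diploid, against 328 and 328 in the alpha haploid and 445 and 424 in the haploid labelled a, and fell by 0.47 ± 0.08. Without scaling the difference of MRPL38 was -0.41 and did not pass. MRPL27 fell by 0.52 ± 0.09, and MRPL51 fell by 0.53 ± 0.11, both of the large subunit too. The lower level of this list did not recur at 7% ethanol, where 14 of its genes were higher and 1 lower. Of all genes 8.6% were higher and 13.6% lower there. At 3% ethanol 1 gene of the list was higher and 10 were lower, beside 13.2% and 18.7% of all genes. For the respiratory chain and ATP synthase the diploid lay between the haploids. Of 34 genes, 20 were higher and 0 lower than in the alpha haploid, while 0 were higher and 33 lower than in the haploid labelled a; against the mean, 4 rose and 8 fell, 0 of them against each haploid. CYC1, cytochrome c, had 377 and 563 in the diploid, against 125 and 104 in the alpha haploid and 572 and 717 in the haploid labelled a, and CYC7, its second form, had 515 and 587 in the diploid, against 184 and 165 in the alpha haploid and 696 and 751 in the haploid labelled a. The difference of CYC1 from the mean, 0.71, was 0.43 without diploid replicate 2. Genes of ribosome assembly lay between in the opposite order: of 61, 48 were lower and 0 higher than in the alpha haploid, and 22 higher and 0 lower than in the haploid labelled a. Over all genes, 7.74% were higher and 18.6% lower than in the alpha haploid. The shares against the haploid labelled a were 18% and 14.3%.

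3 genes were at background in 1 haploid only, with at least 30 in signal in the other; these were chosen after their values were seen. UIP3, a nuclear membrane protein, had 509 and 544 in the diploid, against 2.21 and 2.87 in the alpha haploid and 963 and 1069 in the haploid labelled a, and the diploid carried 51.8% of the level of the haploid labelled a. MST27, a membrane protein of the same family, had 83.7 and 82.6 in the diploid, against 182 and 178 in the alpha haploid and 0.324 and 0.0602 in the haploid labelled a, which is 46.2% of the level of the alpha haploid. YAR068W, an unnamed gene, had 174 and 183 in the diploid, against 4.24 and 0.236 in the alpha haploid and 86.4 and 77.9 in the haploid labelled a, or 217% of the level of the haploid labelled a. In the first and second gene the diploid stood near the middle of the haploids; in the third it was above both.

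Several large classes hardly moved against the mean of the haploids. Of 10 histone genes and 15 genes of the vacuolar ATPase 0 passed, of 33 proteasome genes 1 rose, and of 127 ribosomal protein genes 8 rose and 0 fell (6.3%, beside 18% of all genes). Of 9 reference genes 1 fell (11.1%), which is near the 10.6% of all genes that fell. Against 1 haploid alone the share of all genes that passed was larger, at 26.3% for the alpha haploid and 32.4% for the haploid labelled a. Relative to the haploid labelled a, 8 proteasome genes and 26 ribosomal protein genes were higher and 0 lower. Of all genes 18% were higher and 14.3% lower than in that haploid. Relative to the alpha haploid, 2 proteasome genes were higher and 5 lower, and 2 ribosomal protein genes were higher and 0 lower. The shares of all genes were 7.74% higher and 18.6% lower. Ergosterol genes stood apart from these classes: of 25, 9 rose, beside 7.42% of all genes, and 0 fell. Of the rises, 3 held against each haploid. HMG1, the main HMG-CoA reductase, had 759 and 757 in the diploid, against 222 and 216 in the alpha haploid and 588 and 658 in the haploid labelled a, a rise of 1.0 ± 0.10 that did not pass against the haploid labelled a alone. The median difference of a chromosome's genes lay between -0.04 and 0.01. Among the outer 10 genes of the chromosome arms, 24 rose and 17 fell of 205 (20%), against 374 and 553 of 5155 further in (18%). Runs of at least 4 neighbouring genes with falls were TAT1, ALG14, YBR071W, HSP26 and RDH54 on chromosome II, ATG22, SRO9, GFD2 and GRX1 on III and DCW1, PRI2, PHD1 and SPC42 on XI, with order from the annotation; the difference of TAT1, a tyrosine and tryptophan transporter, of -0.51 was -0.34 without diploid replicate 2. No run of rises of that length was found.

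The same contrast in the 12 arrays of the ethanol cultures shares no sample with the one at 0%. At 3% ethanol 706 genes were higher (13.2%) and 1003 lower (18.7%), and at 7% 461 were higher (8.6%) and 729 lower (13.6%). Of the 398 genes higher at 0%, 242 were also higher at 3% and 137 at 7%; of the 570 lower, 319 were lower at 3% and 232 at 7%. Across genes the difference at 0% had r = 0.76 with that at 3% and 0.70 with that at 7%, as a description over 5363 genes that are not independent. Of the 85 and 190 genes past the threshold against each haploid, 33 and 107 passed in the same direction at all 3 levels against the mean. At 3%, 16 of the 398 higher genes and 24 of the 570 lower had the opposite sign past the threshold, and at 7% 19 and 17 did.

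The largest cell-type differences stayed large: MF(ALPHA)1 was at -7.16 and -7.32 at 3% and 7%, RME1 at -4.93 and -5.15, and HMRA1 at 1.77 and 2.07. The difference itself changed with ethanol for 481 genes at 3% (8.97%; 215 up, 4.01%, and 266 down, 4.96%) and for 494 at 7% (9.21%; 256 up, 4.77%, and 238 down, 4.44%). HXT1 did not pass as higher in the ethanol cultures, with differences of 1.32 at 0%, -0.13 at 3% and -0.20 at 7%, and PHO84 did the same (0.85, 0.07 and 0.02). YNR068C, higher at 0% (0.86), was lower past the threshold at 7% (-0.29). The largest gains at 3% were in RGI1, a respiratory growth gene (-0.24 at 0%, 1.68 at 3%), CYB2, which oxidizes lactate (0.66 and 2.36), and SUE1 (-0.15 and 1.45). The largest losses beside HXT1 were in ZRT1, the zinc transporter (-0.18 and -1.62), and URA7, CTP synthase (-0.08 and -1.27). At 7% the largest gains were in YRO2 (-2.06 at 0% and -0.25 at 7%), HUG1 (-1.70 and -0.07) and SNZ1 (0.17 and 1.72), and the largest losses in FLO11, the adhesin of filamentous growth (-0.12 and -2.26), PRM5 (-1.13 and -2.68) and HXT1. PRM5 thus had a deeper fall at 7% than at 0%. The call for RGI1 at 0% was lost without diploid replicate 1, alpha replicate 2 or a replicate 1. It was also lost without scaling, with median centring and in the fit on the 6 arrays at 0%. SNZ1 gained one without a replicate 1, with quantile normalization, with median centring and with a replicate block.

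**Figure D5:**
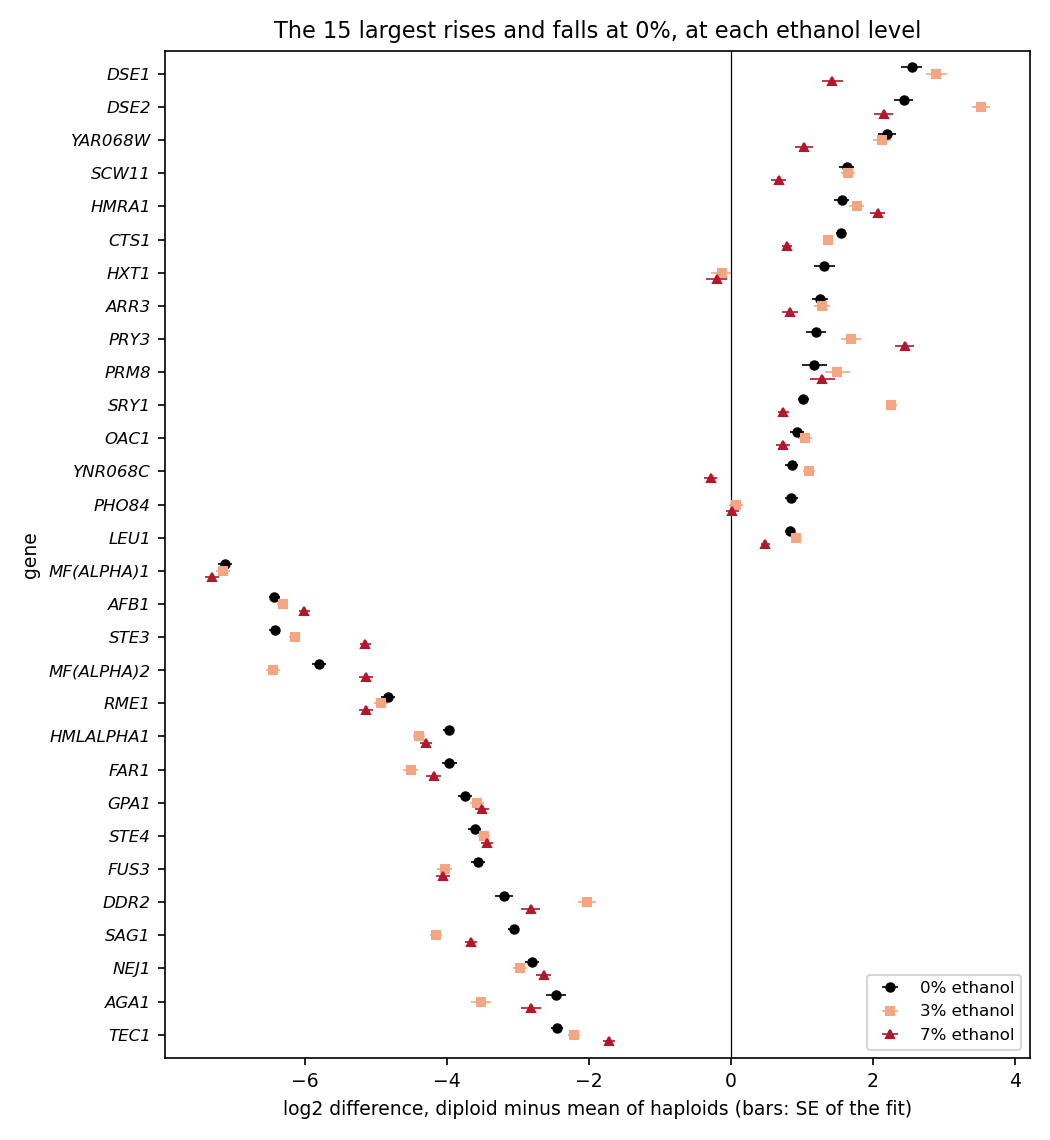
Log2 difference of the diploid from the mean of the haploids, with SE, at 0%, 3% and 7% ethanol for the 15 largest rises and 15 largest falls at 0% among genes past the threshold against each haploid. The falls stay far from 0 at each level, DSE1, DSE2 and PRY3 stay high, HXT1 and PHO84 are near 0 at 3% and 7%, and YNR068C is below 0 at 7%.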

How the data were processed

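Total RNA was biotin-labelled and hybridised to 1 Affymetrix array per sample. The authors deposited 1 linear intensity for each probe set, computed in GCOS per the submitters' processing notes; its version and settings were not given in the sources here. Each array was multiplied by a factor (0.84 to 1.19) that gave all the same 2% trimmed mean over the S. cerevisiae probe sets, and 16 was added before log2. The background limit was the 95th percentile of the other yeast's probe sets (4.6 to 7.58). A gene entered if it exceeded the limit on at least 2 arrays (5363 of 5449 did); its brightest probe set stood for it, and 104 genes had one that reads related genes. Means of 9 groups were fitted with limma 3.58.1 (lmFit, eBayes with trend; R 4.3.3; 9 residual degrees of freedom), with Benjamini-Hochberg adjustment over all genes and a two-sided threshold of 0.05. A lower bound on a fold is given where 1 side lay at or under the limit on all its arrays. Arrays give no read depth; their number, 2 a group, limits the precision. On simulated data for this contrast, 99% of genes changed by 1 and 78% of those changed by 0.5 were recovered, and 5.85% of the calls were false. The simulated noise was independent for each gene and array, with no error shared by an array, such as one of scaling. The simulation therefore gives no error rate for the counts above.

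Genes named are the 15 largest rises and falls past the threshold against each haploid, and those above the limit on 1 side only. Up to 4 members of each list with the smallest p, plus exceptions, are also named. More members are named from the mating and budding lists, but not all of them. The 3 largest changes of the difference each way and runs of neighbours complete the rule. Any other gene was named after its values were seen. The members and the 54 gene lists were chosen with earlier results of these data known. Names and gene order came from a RefSeq annotation and the platform's probe table. Alternatives were other scalings, pseudocounts, filters, fits, a replicate block and leaving out each array. Replicate numbers were not used to pair samples in the main fit. Deviations of same-numbered arrays correlated at -0.07, 0.13 and -0.19 between strains, which does not settle whether such arrays were handled together. Left out were controls, the other yeast's probe sets and 3517 without a gene name.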

Additional observations from a re-analysis of the deposited data

Results flagged for a closer look

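The difference between the diploid and the haploids changed with ethanol, by the test of the change itself, in many of the genes named; the values here are the difference at 3% or 7% minus that at 0%, on the log2 scale, with positive values meaning a higher diploid relative to the haploids. They are changes past an adjusted p of 0.05 in limma, and all share the arrays at 0%.

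At 3% among mating and haploid-specific genes the changes were MF(ALPHA)2 -0.65, SAG1 -1.09, HMLALPHA1 -0.42, FUS3 -0.47, FAR1 -0.54, AMN1 -0.41, STE12 -0.52, DIG2 0.56 and AGA1 -1.06, so that all but DIG2 moved further down. In budding, separation and cycle genes they were BUD3 -0.53, BUD4 -0.53, RAX2 -0.77, SWI5 -0.47, DSE2 1.10 and PST1 0.35. In stress, sugar and phosphate genes they were DDR2 1.17, YRO2 1.20, SPI1 0.67, HXK1 1.14, SUC2 0.63, GPH1 0.51, HXT1 -1.45 and PHO84 -0.78. In respiratory and other metabolic genes they were RGI1 1.92, SUE1 1.61, CYC1 0.83, CYC7 1.08, CYB2 1.70, SRY1 1.24, ZRT1 -1.43, URA7 -1.20 and SNZ1 0.97.

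At 7% the changes among mating and haploid-specific genes were MF(ALPHA)2 0.66, STE3 1.28, SAG1 -0.60, AFB1 0.43, HMRA1 0.51, MFA2 0.73, HO -0.83 and FUS3 -0.50. Pheromone-response genes changed by TEC1 0.73, FUS1 1.07, GIC2 0.40, AFR1 0.77 and PRM5 -1.55. Budding and separation genes changed by BUD3 -0.68, BUD4 -0.50, RAX2 -0.68, DSE1 -1.12, SCW11 -0.96, CTS1 -0.76, PRY3 1.25, ASH1 0.54 and PST1 0.62. Thus DSE1, SCW11 and CTS1 lost part of their rise, while PRY3 gained.

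Stress and wall genes at 7% changed by HSP26 0.57, YRO2 1.81, SPI1 1.19, HXK1 1.43, HSP12 -1.11, DAN1 1.47, TIR2 1.01, TIR4 0.63, CWP1 0.50 and YPS3 0.67, all toward the haploids except HSP12. Cycle and DNA damage genes changed by CLN2 0.62, PCL9 0.75, RNR3 0.67 and HUG1 1.63. Sugar, phosphate and metal genes changed by SUC2 0.60, HXT1 -1.52, PHO84 -0.83, PHO5 0.40, VTC2 -0.47, FRE6 -0.60 and ZRT1 -1.01. Amino acid and lipid genes changed by LEU1 -0.34, LEU2 -0.31, LYS4 -0.42 and HMG1 -1.11. Mitochondrial genes changed by RGI1 0.56, SUE1 0.68, MRPL51 0.49 and MRPL38 0.57. The remaining genes changed by YAR068W -1.18, YNR068C -1.14, SNZ1 1.55 and FLO11 -2.13.

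Of the probe sets without a gene name, 711 entered the test and 23 passed it at 0% ethanol, 9 higher and 14 lower in the diploid. What they read is not analysed here.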

How the results depend on the processing

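Of 114 genes followed through up to 18 settings, 101 passed the threshold at 0%. Of these, 90 passed in every setting that held them, and 11 lost their call in at least 1. Some genes, such as STE3 and FUS3, had 17 settings. They were not tested under the filter that asks for signal above the limit on all 6 arrays. BAR1, which did not pass, changed sign with quantile normalization (0.0033) and without diploid replicate 2, and was at -0.16 to 0.047 over the fits that left out 1 array. Without scaling, the counts of genes higher and lower against the mean fell to 219 and 238 at 0%, 450 and 630 at 3%, and 157 and 473 at 7%; changes of the difference numbered 88 up and 116 down at 3% and 46 and 94 at 7%; against each haploid 46 and 97 genes passed, with 371 lower than the alpha haploid and 512 higher than the haploid labelled a. Against the alpha haploid, 499 genes were lower with quantile normalization, and 867 higher and 581 lower with median centring, which also gave 194 higher genes against each haploid; the fit on 6 arrays gave 52. The cause was not tested. The replicate numbers are shared by the groups; with a replicate block, 414 genes were higher and 587 lower at 0%, 93 and 190 against each haploid.

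Leaving out 1 array gave 208 to 362 higher and 354 to 537 lower genes at 0%, 225 to 312 and 572 to 784 against the alpha haploid, 649 to 828 and 530 to 677 against the haploid labelled a, and 47 to 81 and 136 to 163 against each. It gave 439 to 695 and 653 to 1017 at 3%, 207 to 411 and 306 to 617 at 7%, and, for the change of the difference, 123 to 256 and 147 to 320 at 3% and 142 to 259 and 93 to 253 at 7%. Of the 968 calls at 0%, 499 remained without diploid replicate 1 and 552 without replicate 2, 724 to 804 without a haploid array, with 0 changes of sign. With 2 arrays a group and pooled spread, a lone array was assumed to vary like the others. Log2 differences of genes near the background limit depend on the 16 added.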
